A study of Mus musculus with 4 samples.

Results

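Chemokines are small secreted proteins that guide leukocytes along a concentration gradient, and chemokine receptors are the G protein-coupled receptors through which those cells sense them. CXC chemokines with a glutamate-leucine-arginine motif, such as CXCL1 and CXCL2, act on CXCR2 of neutrophils. CC chemokines of the monocyte chemoattractant type, such as CCL2 and CCL7, act on CCR2 and draw monocytes from blood. CXCL9 and CXCL10 act on CXCR3 of T cells, and CXCL13 acts on CXCR5 of B cells. In liver injured by acetaminophen, dying hepatocytes release signals that make resident macrophages, endothelial cells and surviving hepatocytes secrete chemokines, and neutrophils and then monocytes enter the injured area.

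The genes described here are those whose current symbol begins with Ccl, Cxcl, Ccr or Cxcr and a digit, together with Cx3cl1, Cx3cr1, Xcl1 and Xcr1. A total of 54 such genes had a probe set of their own among 30632 named genes. Of them, 31 had a mean over the arrays at or above 4.32, the 40th percentile of all gene means, and the other 23 are called dim. They were measured in liver on 4 arrays, which were YAP-KO at 24 h, wildtype at 24 h, YAP-KO at 0 h and wildtype at 0 h. All mice were male and were fasted before sampling or injection, and each array held liver RNA pooled from 3 mice. The 24 h mice had received 300 mg/kg acetaminophen by intraperitoneal injection, and no array of mice at 24 h without the drug is among the 4. Wildtype mice carried the floxed Yap1 gene. The Cre driver, the deleted exons, the cells in which Yap1 was deleted, the strain and the age are not given in the sources used here. YAP is a transcriptional coactivator of the Hippo pathway, and the study asks what it does while liver regenerates.

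Values are levels in log2 units as deposited, and a difference of 1 unit is 2-fold. With 1 array per group no difference has a replicate check, so differences are described by size and counted at 2-fold. The genotype and time comparisons reuse the same 4 arrays and are not independent of each other. Array medians over all probe sets were 4.36 in YAP-KO at 24 h, 4.32 in wildtype at 24 h, 4.46 in YAP-KO at 0 h and 4.47 in wildtype at 0 h. The targeted gene, Yap1, stood at 6.01 in YAP-KO and 8.24 in wildtype at 24 h, and at 6.31 in YAP-KO and 7.54 in wildtype at 0 h. The hepatocyte marker albumin was at the highest value of every array, so an upper limit of the arrays may hide a change in it. Values of the marker lists of leukocytes stand beside the chemokines they bear on.

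The promoters of Cxcl1, Cxcl2 and Cxcl3, neighbouring genes whose products attract neutrophils, are shown because these genes were high together on the wildtype 24 h array. Each is the 250 bases before the start of the gene in RefSeq (GRCm38.p6, plus strand), and capitals mark matches to the letters GGGNNNTTCC, a form of the site bound by NF-κB, on either strand, with overlapping matches merged.
Cxcl1, chr5:90890995-90891244: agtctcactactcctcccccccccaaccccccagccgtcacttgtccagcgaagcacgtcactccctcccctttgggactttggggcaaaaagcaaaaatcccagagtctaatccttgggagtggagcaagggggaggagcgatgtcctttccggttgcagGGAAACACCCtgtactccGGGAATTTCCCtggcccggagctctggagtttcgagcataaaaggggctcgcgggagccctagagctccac
Cxcl2, chr5:90903649-90903898: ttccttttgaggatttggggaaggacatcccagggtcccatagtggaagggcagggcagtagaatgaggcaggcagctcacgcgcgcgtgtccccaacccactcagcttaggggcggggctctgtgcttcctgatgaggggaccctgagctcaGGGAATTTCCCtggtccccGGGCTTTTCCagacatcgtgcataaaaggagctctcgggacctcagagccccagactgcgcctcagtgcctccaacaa
Cxcl3, chr5:90785851-90786100: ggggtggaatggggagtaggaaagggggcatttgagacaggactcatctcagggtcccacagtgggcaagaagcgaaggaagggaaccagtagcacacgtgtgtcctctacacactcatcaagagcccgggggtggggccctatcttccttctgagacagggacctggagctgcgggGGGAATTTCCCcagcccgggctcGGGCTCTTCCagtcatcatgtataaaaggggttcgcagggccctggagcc
All 3 hold GGGAATTTCC, beginning 71 bases before the start in Cxcl1, 97 in Cxcl2 and 73 in Cxcl3. The letters GGGNNNTTCC occur on either strand in 4.65% of the 32851 promoters of the table. Of 12 promoters in the table for the 15 members that differed 2-fold between arrays, 4 hold them, the other being that of Ccl9. Those of Ccl2, Ccl7 and Ccl24 were not searched. The letters GGAATG, the core of the site bound by the TEAD partners of YAP, occur in 12.6% of all promoters and in those of Cxcl3 and Cxcl13 among these 12. The letters TGANTCA of AP-1 occur in 6.75% of all promoters and in that of Ccl9. A match describes the sequence and does not show that a factor bound there.

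**Figure D1:**
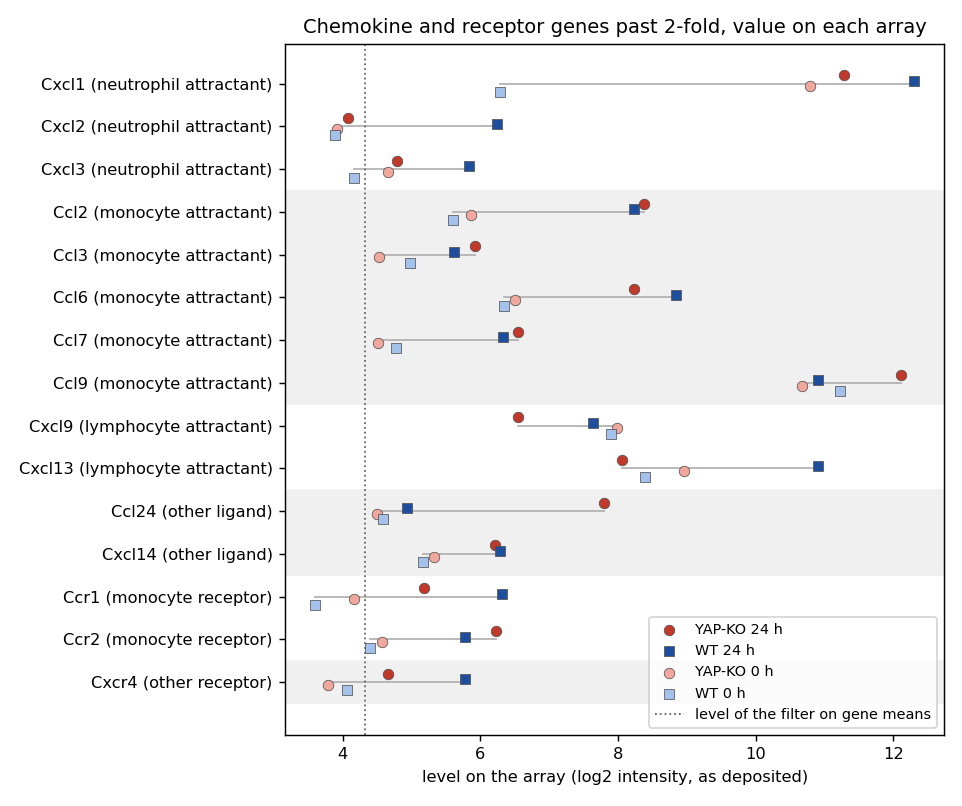
Level on each array (x axis, log2 intensity as deposited) of the 15 chemokine and receptor genes above the filter that differed 2-fold or more between YAP-KO and wildtype or between 24 h and 0 h. Each symbol is 1 array of RNA pooled from 3 mice, and the dotted line marks the filter level of 4.32. Cxcl1 is low only on the wildtype 0 h array, Ccl24 is high only in YAP-KO at 24 h and Cxcl13 is highest in wildtype at 24 h.

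Of the genes that attract neutrophils, Cxcl1, Cxcl2 and Cxcl3 were 2-fold higher at 24 h in wildtype and within 2-fold in YAP-KO. Cxcl1 (Entrez gene 14825), the main mouse ligand of CXCR2, stood at 11.28 in YAP-KO and 12.31 in wildtype at 24 h, and at 10.79 in YAP-KO and 6.29 in wildtype at 0 h. Wildtype liver at 0 h was thus alone at a low level, and YAP-KO liver was high at both times. Its 24 h minus 0 h difference was 0.49 in YAP-KO and 6.02 in wildtype, which is 1.40-fold and 64.9-fold. YAP-KO minus wildtype was -1.03 at 24 h and 4.50 at 0 h, so the genotypes were in opposite order at the 2 times. In bulk liver RNA, a change in the number of producing cells and a change in RNA per cell cannot be told apart.

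Cxcl2, which encodes MIP-2, another CXCR2 ligand, stood at 4.08 in YAP-KO and 6.24 in wildtype at 24 h, and at 3.91 in YAP-KO and 3.89 in wildtype at 0 h. It reached the filter level on the wildtype 24 h array alone, so the other 3 values have no known floor. The 24 h minus 0 h difference was 0.17 in YAP-KO and 2.35 in wildtype. Cxcl3, the third of these neighbouring genes, stood at 4.79 in YAP-KO and 5.83 in wildtype at 24 h, and at 4.66 in YAP-KO and 4.17 in wildtype at 0 h. Its 24 h minus 0 h difference was 0.13 in YAP-KO and 1.66 in wildtype. Unlike Cxcl1, Cxcl2 was level between the genotypes at 0 h (YAP-KO minus wildtype 0.02), and Cxcl3 was 0.49 higher in YAP-KO.

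Cxcl5, whose product also binds CXCR2, was flat, with 4.54 in YAP-KO and 4.91 in wildtype at 24 h, against 4.84 in YAP-KO and 4.83 in wildtype at 0 h. Cxcl15, encoding lungkine, was dim. Over the 4 neutrophil attractants above the filter the median 24 h minus 0 h difference was 0.15 in YAP-KO and 2.01 in wildtype, where all genes kept had 0.07 in both genotypes. The median of YAP-KO minus wildtype was -1.04 at 24 h and 0.26 at 0 h, against -0.02 and -0.03 over all genes kept. Among these 4, Cxcl2 passed the filter through its wildtype 24 h array alone. With the dim Cxcl15 the medians between the times were 0.13 in YAP-KO and 1.66 in wildtype. Those of YAP-KO minus wildtype were then -1.03 at 24 h and 0.35 at 0 h. The receptor gene Cxcr2 stood at 5.99 in YAP-KO and 6.49 in wildtype at 24 h, and at 5.82 in YAP-KO and 5.91 in wildtype at 0 h, so it stayed within 2-fold. Cxcr1 was dim on every array.

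The neutrophil markers had another pattern in YAP-KO. Their summed level (the log2 of the sum of linear values of all 9 markers) was 9.36 in YAP-KO and 11.2 in wildtype at 24 h, and 8.33 in YAP-KO and 8.19 in wildtype at 0 h. Of the 6 markers above the filter, 3 were 2-fold higher at 24 h in YAP-KO, where 4.72% of all genes kept were, and 4 in wildtype, where 12.7% were. The median 24 h minus 0 h difference of the 6 was 0.92 in YAP-KO and 2.81 in wildtype, whereas the attractants had 0.15 in YAP-KO. In YAP-KO against wildtype at 24 h, 0 of the 6 were 2-fold higher and 4 lower, where 3.25% and 5.75% of all genes kept were. S100a8, a calgranulin of neutrophils and monocytes, stood at 7.59 in YAP-KO and 10.06 in wildtype at 24 h. Ly6g and Camp went the other way, with YAP-KO minus wildtype at 0.53 and 0.18. Ly6g (-0.63) and Camp (-0.65) read lower at 24 h in wildtype, and in YAP-KO they differed by 0.09 and -0.15. The granule genes Mpo and Elane were dim on every array. At 0 h, when Cxcl1 was 4.50 higher in YAP-KO, YAP-KO minus wildtype was 0.59 for S100a8, 0.42 for S100a9 and 0.36 for Retnlg. It was 0.03 for Csf3r, -0.19 for Ly6g and -0.32 for Camp. At that time 0 of the 6 markers were 2-fold higher in YAP-KO, where 1.01% of all genes kept were. The part of neutrophils in the chemokine values was not tested.

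Of the 9 genes that attract monocytes, Ccl2, Ccl6 and Ccl7 were 2-fold higher at 24 h in both genotypes. Ccl2, encoding MCP-1, the main ligand of CCR2, stood at 8.38 in YAP-KO and 8.24 in wildtype at 24 h, and at 5.87 in YAP-KO and 5.60 in wildtype at 0 h. Both 24 h arrays were above both 0 h arrays, and the 24 h minus 0 h difference was 2.51 in YAP-KO and 2.64 in wildtype. Ccl7, encoding MCP-3 and lying next to Ccl2, stood at 6.55 in YAP-KO and 6.33 in wildtype at 24 h, and at 4.51 in YAP-KO and 4.78 in wildtype at 0 h. That is a difference of 2.04 in YAP-KO and 1.55 in wildtype. Ccl6, a macrophage chemokine of rodents, stood at 8.23 in YAP-KO and 8.85 in wildtype at 24 h, and at 6.50 in YAP-KO and 6.34 in wildtype at 0 h. For these 3 genes the genotypes were within 0.62 of each other at each time.

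Ccl3, encoding MIP-1α, a ligand of CCR1 made by activated macrophages, stood at 5.92 in YAP-KO and 5.61 in wildtype at 24 h, and at 4.52 in YAP-KO and 4.97 in wildtype at 0 h. Its 24 h minus 0 h difference was 1.40 in YAP-KO and 0.64 in wildtype. With the 0 h array of the other genotype as baseline this order turned, to 0.95 in YAP-KO and 1.09 in wildtype. Ccl9, whose product also binds CCR1, stood at 12.12 in YAP-KO and 10.91 in wildtype at 24 h, and at 10.67 in YAP-KO and 11.23 in wildtype at 0 h. The YAP-KO 24 h array was the highest, and the 24 h minus 0 h difference was 1.45 in YAP-KO and -0.32 in wildtype, or 0.89 in YAP-KO and 0.24 in wildtype with the other genotype's 0 h array. Ccl6, Ccl3 and Ccl9 lie in the same cluster of chromosome 11. The other monocyte attractants, Ccl4, Ccl8, Ccl12 and Cx3cl1, were dim.

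All 5 monocyte attractants above the filter were 2-fold higher at 24 h in YAP-KO, where 4.72% of all genes kept were, and 3 of 5 in wildtype, where 12.7% were. With the other genotype's 0 h array as baseline the counts were 3 of 5 in YAP-KO and 4 of 5 in wildtype. Their median 24 h minus 0 h difference was 1.73 in YAP-KO and 1.55 in wildtype. The median of YAP-KO minus wildtype was 0.22 at 24 h and -0.27 at 0 h. The medians are over the members that passed the filter, which a gene could do through its high arrays. With the 4 dim members the median 24 h minus 0 h difference was 1.40 in YAP-KO and 0.01 in wildtype.

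Of the monocyte receptor genes, Ccr1 and Ccr2 were 2-fold higher at 24 h in both genotypes. Ccr2, the receptor of CCL2 on inflammatory monocytes, stood at 6.23 in YAP-KO and 5.77 in wildtype at 24 h, and at 4.57 in YAP-KO and 4.39 in wildtype at 0 h. The 24 h minus 0 h difference was 1.66 in YAP-KO and 1.38 in wildtype. Ccr1, a receptor of neutrophils and monocytes, stood at 5.18 in YAP-KO and 6.32 in wildtype at 24 h, and at 4.16 in YAP-KO and 3.60 in wildtype at 0 h, when both arrays lay under the filter level. Its 24 h minus 0 h difference was 1.02 in YAP-KO (0.87 after centring) and 2.72 in wildtype. Thus at 24 h, unlike Ccr2, it was below its wildtype level in YAP-KO liver (-1.14). Cx3cr1, the receptor of fractalkine on patrolling monocytes and tissue macrophages, stood at 5.28 in YAP-KO and 4.85 in wildtype at 24 h, and at 4.54 in YAP-KO and 4.84 in wildtype at 0 h, within 2-fold throughout. Over the 7 receptor genes above the filter, of 18 in all, the median 24 h minus 0 h difference was 0.74 in YAP-KO and 0.58 in wildtype. Over all 18 it was 0.105 in YAP-KO and -0.035 in wildtype, and Ccr1 and Cxcr4 reached the filter level only at 24 h.

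Monocyte and macrophage markers were higher at 24 h in part. The summed level of all 9 was 13.8 in YAP-KO and 14.0 in wildtype at 24 h, and 11.2 in YAP-KO and 11.5 in wildtype at 0 h. In each genotype 5 of the 9 were 2-fold higher at 24 h, against 4.72% of all genes kept in YAP-KO and 12.7% in wildtype. In YAP-KO against wildtype at 24 h, 0 were higher and 2 lower at 2-fold, where 3.25% and 5.75% of all genes kept were. The 2 were Cd14, the lipopolysaccharide co-receptor gene, at 6.39 in YAP-KO and 10.12 in wildtype, and Csf1r, the gene of the macrophage colony-stimulating factor receptor, at 7.77 in YAP-KO and 9.04 in wildtype. Itgam, the CD11b gene, stood at 6.40 in YAP-KO and 7.38 in wildtype. Ly6c2, a marker of inflammatory monocytes, stood at 7.88 in YAP-KO and 6.91 in wildtype at 24 h, and at 5.74 in YAP-KO and 6.26 in wildtype at 0 h. Of 5 Kupffer cell markers, 2 were 2-fold higher at 24 h in YAP-KO and 4 in wildtype. The part of these cells in the chemokine and receptor values was not tested.

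**Figure D2:**
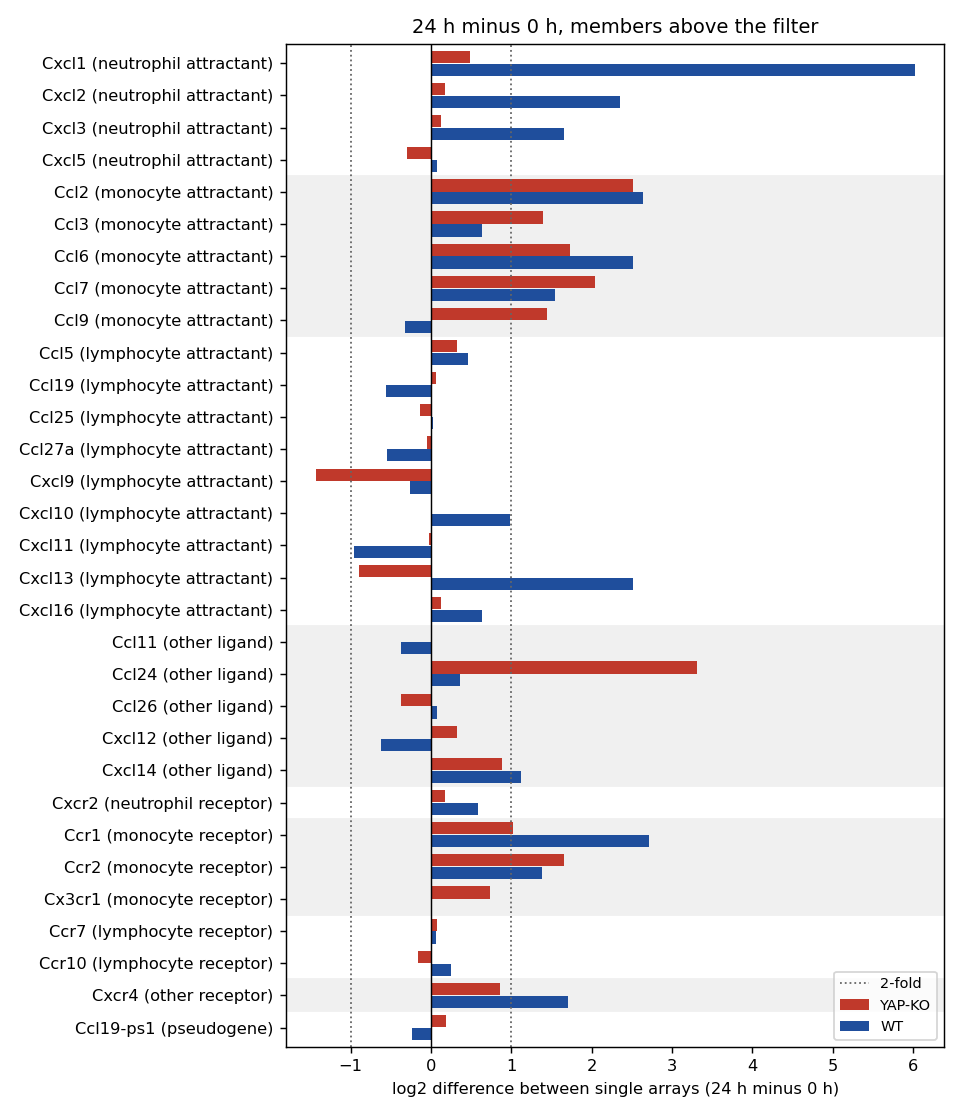
Difference between 24 h and 0 h (x axis, log2 units, 24 h minus 0 h) of the 31 chemokine and receptor genes above the filter, YAP-KO in red above wildtype in blue. Each bar is the difference of 2 arrays and has no error, and dotted lines mark 2-fold. Cxcl1, Cxcl2 and Cxcl3 have long bars in wildtype only, Ccl2, Ccl6 and Ccl7 in both genotypes, and Ccl24 in YAP-KO only.

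Lymphocyte attractants were largely level between the times, with Cxcl13 and Cxcl9 past 2-fold. Cxcl13, the B cell chemokine that binds CXCR5, stood at 8.06 in YAP-KO and 10.91 in wildtype at 24 h, and at 8.96 in YAP-KO and 8.39 in wildtype at 0 h. The wildtype 24 h array was the highest and the YAP-KO 24 h array the lowest. The 24 h minus 0 h difference was -0.90 in YAP-KO and 2.52 in wildtype, and YAP-KO minus wildtype at 24 h was -2.85. Cxcl9, an interferon-induced ligand of CXCR3, stood at 6.55 in YAP-KO and 7.64 in wildtype at 24 h, and at 7.98 in YAP-KO and 7.90 in wildtype at 0 h. It was lower on the YAP-KO 24 h array than on the other 3, with a 24 h minus 0 h difference of -1.43 in YAP-KO and -0.26 in wildtype.

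Cxcl10, the neighbour of Cxcl9 and a CXCR3 ligand as well, stood at 4.35 in YAP-KO and 5.18 in wildtype at 24 h, and at 4.35 in YAP-KO and 4.19 in wildtype at 0 h. It was 0.99 higher at 24 h in wildtype, just under 2-fold. Cxcl11, which RefSeq lists as a transcribed pseudogene in the reference strain, went the other way in wildtype (-0.96) and was level in YAP-KO (-0.03). Cxcl16, a transmembrane chemokine that binds CXCR6, stood at 6.60 in YAP-KO and 7.01 in wildtype at 24 h, and at 6.47 in YAP-KO and 6.38 in wildtype at 0 h. Ccl5, encoding RANTES, differed by 0.32 in YAP-KO and 0.46 in wildtype between 24 h and 0 h. Ccl25, the ligand of CCR9, differed by at most 0.27 in any of the 4 comparisons.

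Over the 9 lymphocyte attractants above the filter, the median 24 h minus 0 h difference was -0.03 in YAP-KO and 0.02 in wildtype. The lymphocyte receptor genes Ccr7 and Ccr10 stayed within 0.28 in all 4 comparisons, and the other 7, Cxcr3, Cxcr5, Cxcr6, Ccr4, Ccr6, Ccr8 and Ccr9, were dim. The defining markers of lymphocytes were low as well. The summed level of 5 T cell markers was 6.37 in YAP-KO and 6.23 in wildtype at 24 h, and 6.44 in YAP-KO and 6.43 in wildtype at 0 h. Without detection calls, a gene near the low end cannot be told from one not detected.

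Ccl19 and Ccl21 encode the CCR7 ligands of lymphoid tissue, and Ccl27 genes encode skin-type CCR10 ligands. They lie among near-identical copies on chromosome 4, and 19 probe sets that carry such a symbol are annotated to several genes. The 9 probe sets with a Ccl21 symbol read -0.71 to -0.58 in YAP-KO minus wildtype at 24 h and -0.47 to -0.04 at 0 h. Their 24 h minus 0 h readings were -0.42 to -0.21 in YAP-KO and -0.05 to 0.22 in wildtype. These probe sets may share sequence and are not separate observations. The 5 probe sets with a Ccl27 symbol read -0.24 to 0.01 between the times in YAP-KO and -1.02 to -0.29 in wildtype, and the 5 with a Ccl19 symbol stayed within 0.45. The probe sets annotated to Ccl19, Ccl27a and the pseudogene Ccl19-ps1 alone stayed within 2-fold, and the copies may also contribute to them.

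Ccl24 was the member with the largest difference in YAP-KO. Ccl24, encoding eotaxin-2, a CCR3 ligand that attracts eosinophils and is made by alternatively activated macrophages, stood at 7.80 in YAP-KO and 4.94 in wildtype at 24 h, and at 4.49 in YAP-KO and 4.58 in wildtype at 0 h. Only the YAP-KO 24 h array was high, with a 24 h minus 0 h difference of 3.31 in YAP-KO, which is 9.92-fold, and 0.36 in wildtype. The eosinophil markers Prg2 and Epx were dim on all arrays, and Siglecf stood at 4.36 in YAP-KO and 4.35 in wildtype at 24 h. The other eotaxin genes did not follow: Ccl11 stood at 5.53 in YAP-KO and 5.22 in wildtype at 24 h, and Ccl26 at 4.28 in YAP-KO and 4.22 in wildtype. The receptor gene Ccr3 was dim. Chil3, on the list of monocyte and macrophage markers, stood at 9.87 in YAP-KO and 9.91 in wildtype at 24 h. Its 24 h minus 0 h difference was 5.61 in YAP-KO and 5.22 in wildtype. Which cells the Ccl24 RNA came from was not tested.

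Cxcl12, the homeostatic ligand of CXCR4, stood at 9.82 in YAP-KO and 9.01 in wildtype at 24 h, and at 9.49 in YAP-KO and 9.63 in wildtype at 0 h. Its receptor gene Cxcr4 stood at 4.65 in YAP-KO and 5.77 in wildtype at 24 h, and at 3.79 in YAP-KO and 4.06 in wildtype at 0 h, when both arrays lay under the filter level. The 24 h minus 0 h difference of Cxcr4 was 0.86 in YAP-KO and 1.71 in wildtype. At 24 h the ligand was thus higher and the receptor lower in YAP-KO than in wildtype, by 0.81 and -1.12. Cxcl14, a chemokine of epithelia, stood at 6.21 in YAP-KO and 6.29 in wildtype at 24 h, and at 5.32 in YAP-KO and 5.17 in wildtype at 0 h, a difference between the times of 0.89 in YAP-KO and 1.12 in wildtype.

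Counted at 2-fold over the 31 genes above the filter, 8 were higher and 1 lower at 24 h in YAP-KO, where 4.72% of the 18383 genes kept were higher and 2.22% lower. In wildtype 11 were higher and 0 lower at 24 h, where 12.7% of all genes kept were higher and 5.92% lower. After centring, 7 were higher and 2 lower in YAP-KO, and 10 higher and 1 lower in wildtype. After quantile normalization, 8 were higher and 2 lower in YAP-KO, and 12 higher and 0 lower in wildtype. For YAP-KO against wildtype at 24 h, 2 were higher (Ccl24 and Ccl9) and 7 lower, against 3.25% and 5.75% of all genes kept. The 7 were Cxcl1, Cxcl2, Cxcl3, Cxcl9, Cxcl13, Ccr1 and Cxcr4. At 0 h Cxcl1 was the only member past 2-fold, where 1.01% of all genes kept were 2-fold higher and 0.881% lower. In the difference of responses, YAP-KO minus wildtype, 2 were higher and 6 lower, against 5.68% and 7.51% of all genes kept.

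Of the 7 members lower in YAP-KO at 24 h, 5 lay between -1.14 and -1.03. After quantile normalization only Cxcl2 (-2.01) and Cxcl13 (-2.85) remained past 2-fold, and Cxcl1 was at -0.84. After centring, Cxcl2, Cxcl13, Ccr1 and Cxcr4 remained, and Ccl2, Ccl6 and Ccl7 stayed past 2-fold between the times in both genotypes under both scalings. None of the 23 dim members differed 2-fold in any of the 4 comparisons. Their levels ran between 3.22 and 4.91, and the largest difference among them was 0.92.

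**Figure D3:**
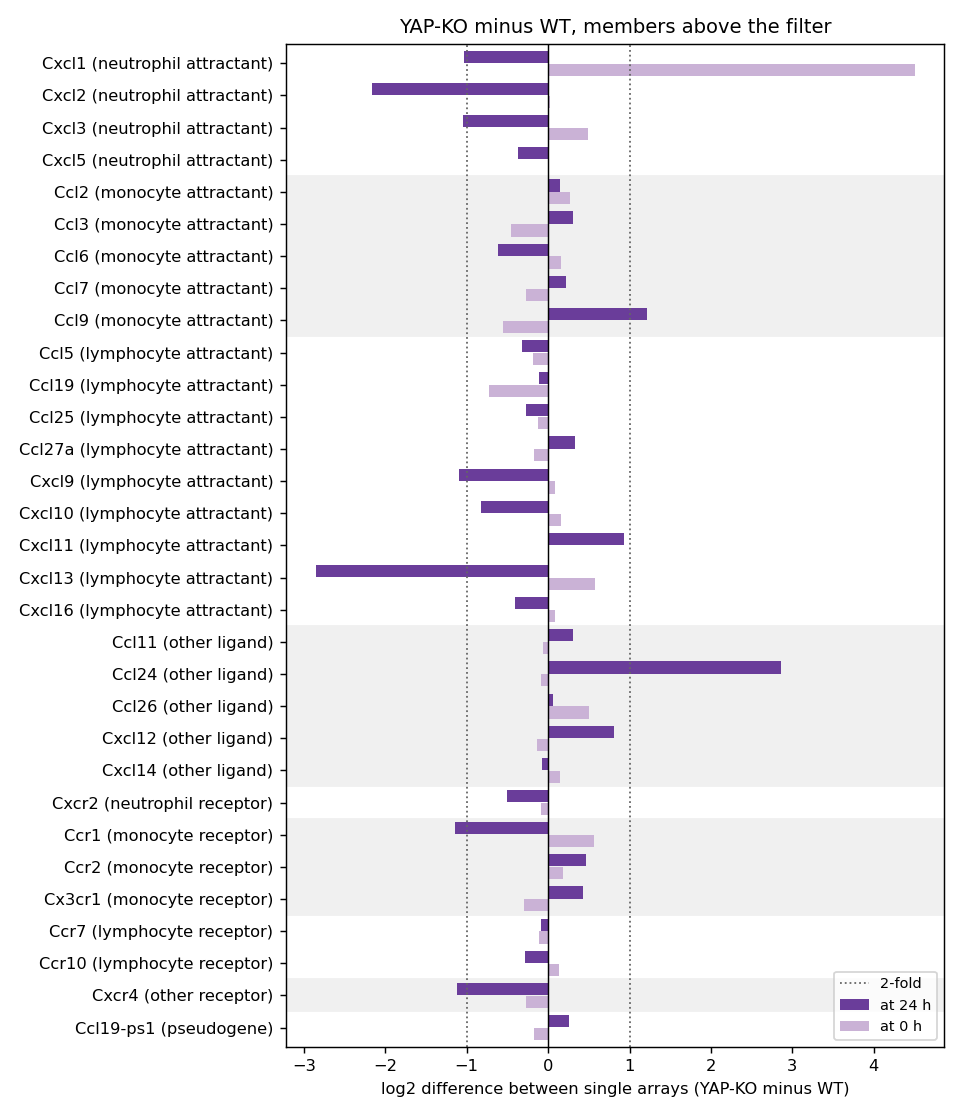
Difference between the genotypes (x axis, log2 units, YAP-KO minus wildtype) of the 31 chemokine and receptor genes above the filter, at 24 h (dark) above 0 h (light). Each bar is the difference of 2 arrays and has no error, and dotted lines mark 2-fold. At 0 h Cxcl1 (4.50) is the only bar past 2-fold, whereas at 24 h 2 bars pass it to the right and 7 to the left.

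The neighbouring genes of a cluster moved together in part. On chromosome 5, the members run in the order Cxcl5, Cxcl3, Cxcl15, Cxcl1, Cxcl2, with the platelet chemokine genes Ppbp and Pf4 between Cxcl5 and Cxcl3. In wildtype, Cxcl3, Cxcl1 and Cxcl2 were higher at 24 h, while Cxcl5 differed by 0.08 and the dim gene Cxcl15, which lies between Cxcl3 and Cxcl1, read -0.48. Ppbp stood at 5.22 in YAP-KO and 6.72 in wildtype at 24 h, and at 4.83 in YAP-KO and 4.58 in wildtype at 0 h. Pf4 stood at 5.28 in YAP-KO and 6.08 in wildtype at 24 h, and at 5.28 in YAP-KO and 4.66 in wildtype at 0 h. Between the times Ppbp differed by 0.39 in YAP-KO and 2.14 in wildtype, and Pf4 by 0 in YAP-KO and 1.42 in wildtype. On chromosome 11, Ccl2 and Ccl7 were higher at 24 h. The next members, Ccl11, Ccl12, Ccl8 and Ccl1, stayed within 0.37 between the times in both genotypes. Of these, Ccl12, Ccl8 and Ccl1 were dim. Further along, the successive members Ccl9, Ccl6 and Ccl3 differed between the times by 1.45, 1.73 and 1.40 in YAP-KO. In wildtype they differed by -0.32, 2.51 and 0.64.

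**Figure D4:**
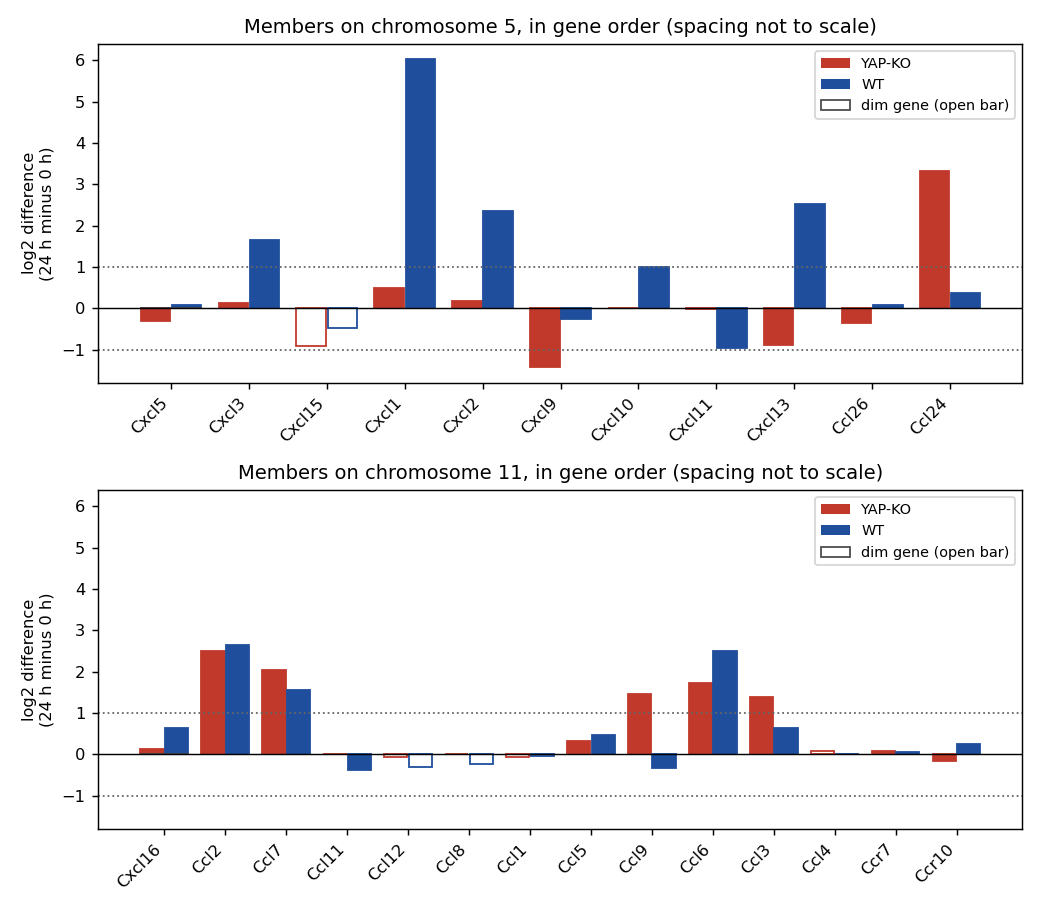
Difference between 24 h and 0 h (y axis, log2 units) of the members on chromosomes 5 and 11, in gene order along each chromosome and not to scale, YAP-KO in red left of wildtype in blue. Each bar is the difference of 2 arrays and has no error, open bars are dim genes and dotted lines mark 2-fold. In wildtype, Cxcl1 (6.02) lies between the dim gene Cxcl15 (-0.48) and Cxcl2 (2.35). Ccl2 (2.64 in wildtype) is followed by Ccl7 (1.55) and then by Ccl11 (-0.37).

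Genes that induce chemokines or act beside them were looked at as fixed lists of 37 genes, of which 27 were above the filter. In YAP-KO 2 were 2-fold higher at 24 h and 1 lower, where 4.72% and 2.22% of all genes kept were. In wildtype 15 were higher and 0 lower, where 12.7% and 5.92% were. For YAP-KO against wildtype at 24 h, 0 were higher and 6 lower, where 3.25% and 5.75% were. The counts of these lists were not recomputed after quantile normalization or centring. Il1b, encoding the cytokine interleukin 1β, stood at 6.35 in YAP-KO and 8.15 in wildtype at 24 h, and at 5.73 in YAP-KO and 6.29 in wildtype at 0 h. Csf1, the macrophage growth factor gene, differed by 0.86 in YAP-KO and 1.30 in wildtype between the times. Tnf differed by 0.62 in YAP-KO and 0.51 in wildtype between the times. Il6, Il17a, Ifng, Csf2 and Csf3 were dim.

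Tnfaip3, encoding the NF-κB inhibitor A20, stood at 5.85 in YAP-KO and 6.94 in wildtype at 24 h, and at 5.46 in YAP-KO and 5.37 in wildtype at 0 h. Nfkbia, encoding IκBα, and Zfp36, encoding an RNA-binding protein that destabilises cytokine messages, were 2-fold lower in YAP-KO at 24 h. Nfkbia stood at 8.42 in YAP-KO and 9.54 in wildtype, and Zfp36 at 8.39 in YAP-KO and 9.48 in wildtype. YAP-KO minus wildtype at 24 h was -1.09 for Tnfaip3, -1.12 for Nfkbia and -1.09 for Zfp36, close to the 2-fold cut. Between 24 h and 0 h, Nfkbiz, encoding a nuclear IκB protein, differed by 0.33 in YAP-KO and 1.34 in wildtype. Rela, the p65 subunit gene of NF-κB, differed by 0.00 in YAP-KO and 1.20 in wildtype, and Myd88, the adaptor gene of interleukin 1 and Toll-like receptors, by 0.45 in YAP-KO and 1.16 in wildtype. Bcl3, a nuclear IκB family gene, was 2-fold higher in YAP-KO at 0 h, as Cxcl1 was, at 8.78 in YAP-KO and 6.94 in wildtype, and it was the gene 2-fold lower at 24 h in YAP-KO (-1.24).

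The adhesion molecule gene Selp, encoding P-selectin, stood at 5.47 in YAP-KO and 6.80 in wildtype at 24 h, and at 4.76 in YAP-KO and 4.62 in wildtype at 0 h. Itgb2, the β2 integrin gene of leukocytes, differed by 1.25 in YAP-KO and 1.67 in wildtype between the times, and Sele, encoding E-selectin, by 1.17 in YAP-KO and 1.48 in wildtype. Icam1 differed by 0.70 in YAP-KO and 1.07 in wildtype, and Vcam1 by 0.66 in YAP-KO and 1.64 in wildtype, both endothelial ligands of leukocyte integrins. Ccrl2, an atypical receptor that binds chemerin, stood at 4.85 in YAP-KO and 5.79 in wildtype at 24 h.

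The additive limma fit of genotype and time over the 4 arrays, with 1 residual degree of freedom, was the only test. With Benjamini-Hochberg adjustment over the 18383 genes kept it called 0 of the 31 members for time and 0 for genotype, as it called 0% of all genes. At an unadjusted p under 0.05, limma had 8 of 31 members for time, against 15.3% of all genes kept, and 0 of 31 for genotype, against 2.36%. Ccl2 had the smallest p of the members, with a time effect of 2.58 ± 0.18 (SE) and a limma adjusted p of 0.2846. It was higher at 24 h in both genotypes. The other 7 were Ccl3, Ccl6, Ccl7, Ccr1, Ccr2, Cxcl14 and Cxcr4. Cxcl1, Cxcl2, Cxcl3, Cxcl13 and Ccl24, whose 24 h minus 0 h differences were unequal between the genotypes, were not among them, since the interaction is the error of this fit.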

How the data were processed

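Total RNA from mouse liver was extracted with Trizol, labelled with biotin (GeneChip WT Plus kit) and hybridised as 1 pool of 3 mice per array, per the labels' protocols. The deposited values are on a log2 scale, as their range of 2.24 to 19.93 implies. The authors' background correction, summarisation and normalization are not given in the sources used here, and no detection call was used.

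Of 65956 probe sets, 31085 carried 1 gene, 1665 several and 33206 none in the platform annotation. Symbols were updated through Entrez identifiers to RefSeq (GRCm38.p6), which changed 842. A probe set with several genes gave no gene value. The brightest probe set stood for a gene, and 18383 of 30632 genes, those whose mean reached the 40th percentile (4.32), were kept. No member had several probe sets of its own. Levels of different probe sets entered the filter, the choice of brightest probe set, the summed marker levels and remarks on low or high levels. They were not otherwise compared.

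Differences of single arrays carry no p-value. An additive fit was made with limma 3.58.1 (R 4.3.3). Alternatives were quantile normalization, centring, probe-set means, other filters, 1.5-fold and the other genotype's 0 h array. The members, lists and tests were chosen with earlier results of these data known. Members past 2-fold in a pairwise comparison of arrays were named with all values, and the others by role or count. Members above the filter whose responses were at least 1.5-fold in both genotypes and opposite were picked out for a closer look.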

Additional observations from a re-analysis of the deposited data

Results flagged for a closer look

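Cxcl13, the B cell chemokine, moved in opposite directions in the genotypes, by -0.90 in YAP-KO and 2.52 in wildtype between 0 h and 24 h, a difference of responses of -3.42. It was the only member above the filter with opposite responses of at least 1.5-fold in both genotypes. With the 0 h array of the other genotype as baseline its responses were -0.33 in YAP-KO, under 1.5-fold, and 1.95 in wildtype. The difference was not tested, since each genotype had 1 array per time.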

How the results depend on the processing

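Of 151 recomputed counts and medians, 136 kept within 1.5 times (counts) or 0.585 log2 units (medians) of the reported value. Some of the 151 could not change. No member had several probe sets of its own, so probe-set means left the member values as they were. No dim member differed 2-fold in a pairwise comparison, so those counts stayed the same without the filter. After quantile normalization 4 members differed 2-fold between YAP-KO and wildtype at 24 h, 2 higher and 2 lower (3 and 4 after centring), against 2 and 7 as deposited. In the difference of responses the split was 3 and 6 after quantile normalization and 4 and 6 after centring, against 2 and 6. Centring shifted the median of all genes kept from 0.07 to -0.19 between wildtype times. With the 60th percentile filter, which left 14 members and Cxcl1 as the only neutrophil attractant, counts at 2-fold were 4 (YAP-KO minus wildtype at 24 h), 5 (YAP-KO times), 6 (wildtype times) and 4 (difference of responses). The neutrophil attractant median then equalled Cxcl1, at 4.50 at 0 h, 6.02 for wildtype times and -5.53 for the difference of responses. With no filter, medians between the times were 0.105 (receptors, YAP-KO), -0.035 (receptors, wildtype) and 0.01 (monocyte attractants, wildtype). At 1.5-fold, 2 members differed at 0 h, 1 higher and 1 lower, and 16 in the difference of responses.

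With the other genotype's 0 h array as baseline, the 24 h minus 0 h difference of Cxcl1 was 4.99 in YAP-KO and 1.52 in wildtype, and its difference of responses turned to 3.47. The neutrophil attractant median became 1.345 in wildtype and -0.455 for the difference of responses. The difference of responses of Cxcl3 moved to -0.55, of Ccr1 to -0.58, of Ccl3 to -0.14, of Ccl9 to 0.65 and of Cxcl13 to -2.28. Cxcl13 was then at -0.33 in YAP-KO and 1.95 in wildtype. No paired analysis was possible because each group had 1 array. The number of arrays limits the precision of every value.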
